A study of Labeotropheus fuelleborni x Mchenga conophoros and Petrotilapia nigra x Mchenga conophoros and Petrotilapia nigra x Aulonocara baenschi with 10 samples.

Results

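Brain messenger RNA was compared within 4 pairs of F1 hybrid brothers, each pair made up of a male that courted females over sand (social sand) and a brother that courted over rock in the same tank (social rock). These 8 libraries, 4 social sand and 4 social rock, were chosen from the 10 of the series by the cross and the ending of their labels. That ending is SUB for each social sand male and DOM for each social rock male. The other 2 came from males tested alone and were not compared. Every fish had a rock-dwelling father and a sand-dwelling mother, and brothers came from 1 brood. The crosses were Petrotilapia nigra with Mchenga conophoros (Petro_MC), Petrotilapia nigra with Aulonocara baenschi (Petro_AB), Maylandia zebra with Tramitichromis intermedius (MZ_TI) and Labeotropheus fuelleborni with Mchenga conophoros (LF_MC). Each library was the whole brain of 1 male, taken right after a timed courtship session. Values of single fish are given below in this order of crosses. No allele, drug or other agent was applied, and ages are not in the labels. There was 1 pair for each cross, so cross, brood and trial cannot be told apart. Courtship context cannot be told apart from the DOM or SUB label, nor from body size, since the larger brother typically held the rock. The p-values therefore measure the spread of 4 pairs.

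In Lake Malawi, rock-dwelling males hold territories all year, while males of many sand-dwelling species build bowers in the breeding season to attract females. A teleost brain sample mixes neurons, which release transmitter by calcium-triggered fusion of synaptic vesicles, with astrocyte-like radial glia, which take up glutamate and GABA, and with myelinating cells that wrap axons. In such a bulk sample, fewer cells of a type and less RNA per cell cannot be told apart.

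The unit of measurement was the count of sequenced fragments per annotated locus. Social sand libraries held 335551, 206320, 296983 and 250677 counts and social rock libraries 492489, 694114, 565415 and 504830. The social rock total was thus 1.47, 3.36, 1.90 and 2.01 times that of the social sand brother. At least 1 count was found for 12167 ± 789 loci in social sand and 16066 ± 480 in social rock brains (SD, n = 4 each). The paired difference, -3899 loci, had the same sign in 4 of 4 pairs (two-sided exact paired permutation p = 0.125, which 4 pairs cannot go below). Thinned to 206320 counts each, the libraries held 11529.5 ± 504 loci in social sand and 13499.8 ± 771 in social rock (SD, n = 4 each, exact paired permutation p = 0.125). The 10 most abundant loci took 9.08% of the counts in the social sand and 6.02% in the social rock library of LF_MC, against 17.8% to 23.3% in the other 6. Levels are given as CPM, a library's counts of a locus scaled to a common total. Markers of neurons, astrocytes and myelinating cells had counts in every group. They were all drawn from genes the study called on these samples. The 3 neuron markers summed to 556 to 1207 CPM in social sand and 1710 to 3201 in social rock, the 4 astrocyte markers to 417 to 748 and 1184 to 3620, and the 4 myelin markers to 428 to 899 and 1588 to 3671. Of these, 2, 4 and 3 were called lower. The 4 markers of blood, vessel and immune cells summed to 189 to 260 CPM in social sand and 144 to 179 in social rock. Of these 4, 1 was tested, none was called and 1 was at 0 in all 4 social sand libraries. The tested marker alone had 260, 209, 176 and 251 CPM in social sand, against 126, 120, 109 and 108 CPM in social rock. It made up all or most of each sum, so the sums mainly follow 1 locus. The part of library size and of these cell markers in the results below was not tested, beyond the thinned fit given beside them.

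Most of the genes that differed were lower in the social sand brother. Of 32455 loci, 21912 had a count and 4862 had enough to be tested. With brood as a block, 311 of the 4862 were called, 6.4% of those tested, at a Benjamini-Hochberg adjusted p under 0.05 from edgeR's quasi-likelihood test and a change of at least 2-fold. Of these, 296 were lower in social sand, 6.09% of those tested, and 15 were higher, 0.309%. The median change of the called genes was 3.74-fold lower and 2.40-fold higher, while the median log2 fold change of all genes tested was 0.02. A further 6 genes passed the adjusted p with a change under 2-fold, and all 6 were higher. Before adjustment, 1001 genes had a p under 0.05. All 4 social sand values lay below all 4 social rock values for 247 of the 296 genes called lower (454 or 9.34% of all genes tested) and above them for 12 of the 15 called higher (216 or 4.44%). A mean under 50 counts was found for 197 of the 311 called genes (63.3%) and 3590 of the 4862 tested (73.8%). With all libraries thinned to 206320 counts, 207 genes were called lower and 12 higher among 2949 tested, and 191 of the 296 and 5 of the 15 were among them. The calls rested most on 2 pairs. Without the LF_MC pair 54 genes were called lower and 7 higher, and without the MZ_TI pair 82 and 3, whereas 291 and 25 were called without Petro_MC and 440 and 48 without Petro_AB. A fit of 3 pairs also has fewer libraries to estimate the spread.

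The gene with the smallest p was calm2, which encodes the calcium sensor calmodulin. It stood at 78.6, 71.4, 75.5 and 134 CPM in the social sand brothers, against 397, 353, 521 and 1346 CPM in their social rock brothers. CPM values were scaled by TMM to the counts of the genes tested. Every social sand value lay below every social rock value, and LF_MC was highest in both contexts. Social sand over social rock, this gave log2 fold change -2.71, standard error 0.31, adjusted p = 1.86e-05. cirbp, an RNA-binding protein induced by cold, had 78.6, 143, 75.5 and 179.7 CPM in social sand, against 495, 490.4, 847 and 1263 CPM in social rock. It too showed no overlap (log2 fold change -2.68, standard error 0.32, adjusted p = 1.86e-05). The glutamate transporter gene slc1a2, which in the brain serves astrocytes to clear glutamate from synapses, had 229, 264, 323 and 598 CPM in social sand, against 1077, 859, 1927 and 2838 CPM in social rock (log2 fold change -2.20, standard error 0.26, adjusted p = 1.93e-05). In both contexts the LF_MC brother was the highest, as for calm2, but Petro_MC and Petro_AB changed order between the contexts. The gene spa17, named for a sperm autoantigen that binds protein kinase A anchoring partners, had 34.2, 71.4, 41.9 and 58.5 CPM in social sand, against 199, 307, 418 and 545 CPM in social rock (log2 fold change -2.80, standard error 0.35, adjusted p = 3.22e-05). For LOC101485530, which encodes ependymin-1, a glycoprotein that fish brains secrete into the extracellular fluid, the values were 602, 588, 277 and 385 CPM in social sand and 2063, 1584, 3038 and 4880.4 CPM in social rock (log2 fold change -2.57, standard error 0.34, adjusted p = 5.19e-05). Here LF_MC was the highest of the social rock males but not of the social sand males. These 5 genes were called in each of the 4 fits that left out a pair, with adjusted p up to 0.00556.

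**Figure D1:**
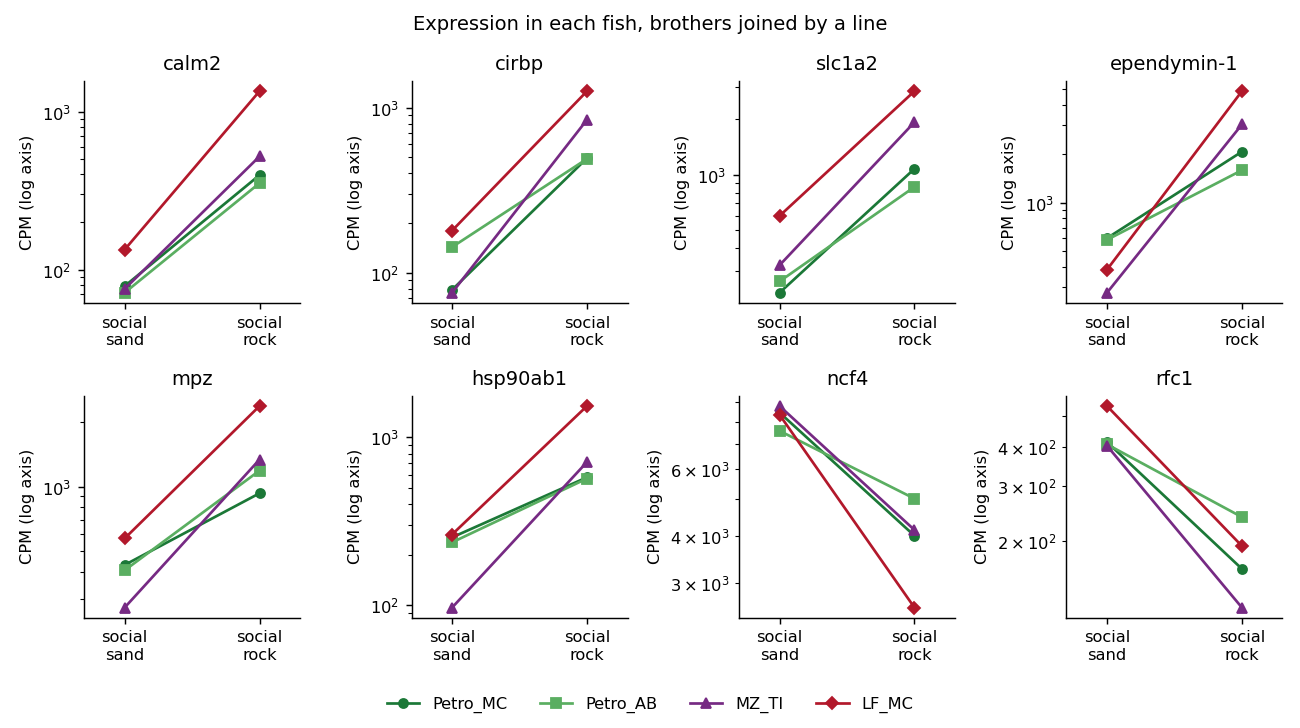
Expression of 8 genes in each fish, in CPM on log axes, with social sand left and social rock right and brothers of a cross joined by a line. For calm2, cirbp, slc1a2, ependymin-1, mpz and hsp90ab1 all 4 lines are lower at social sand, and for ncf4 and rfc1 all 4 are higher there, with ncf4 between 7578 and 8811 CPM in social sand and between 2589 and 5019 CPM in social rock.

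Among the next genes by p, LOC101477261 encodes the membrane proteolipid of the V-type proton pump that acidifies vesicles. It had 27.4, 104, 62.9 and 66.9 CPM in social sand, against 266, 279, 330.2 and 591 CPM in social rock (log2 fold change -2.52, standard error 0.36, adjusted p = 1.88e-04). LOC101480315 encodes GPRC5B, an orphan receptor of the G protein-coupled class. Its values were 30.8, 82.4, 71.3 and 109 CPM in social sand and 296, 199, 349.6 and 549 CPM in social rock (log2 fold change -2.27, standard error 0.35, adjusted p = 4.88e-04). The change of the pump gene was -3.05 on the log2 scale in Petro_MC and in LF_MC, and that of the receptor gene was largest in Petro_MC, -3.06. zranb2, a splicing factor with zinc fingers, had 13.7, 11, 0 and 16.7 CPM in social sand, against 112, 95.3, 101 and 149 CPM in social rock (log2 fold change -3.48, standard error 0.55, adjusted p = 5.96e-04). It was at 0 in the social sand male of MZ_TI. All 3 were called in each of the 4 fits that left out a pair.

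Genes of transmitter release made up the largest list. Names were available only for genes that the study itself had called on these samples, so neither this list nor those below are independent evidence of direction. Of the 388 genes with a name that were tested, 263 were called lower (67.8%), so a high count within a list does not by itself set that list apart. Of 27 listed genes of transmitter release, 24 were tested and 21 of these were called lower, none higher. The median log2 fold change of the 24 was -1.65, against 0.02 over all genes tested. slc6a17, a transporter of neutral amino acids into synaptic vesicles, had 30.8, 27.5, 25.2 and 29.3 CPM in social sand, against 163, 139, 169 and 251 CPM in social rock. The social sand values were close together and all lay below social rock (log2 fold change -2.64, standard error 0.40, adjusted p = 3.47e-04). Endophilin-A1 (LOC101482997), which helps to retrieve vesicles after fusion, had 44.4, 0, 33.5 and 62.7 CPM in social sand and 197, 109, 163 and 257 CPM in social rock (log2 fold change -2.46, standard error 0.44, adjusted p = 0.00118), with no count in the Petro_AB social sand male. The active zone scaffold piccolo (LOC101476438) stood at 20.5, 22, 21 and 33.4 CPM in social sand, against 91.7, 86.4, 130.1 and 187 CPM in social rock (log2 fold change -2.32, standard error 0.43, adjusted p = 0.00192). These 3 were called without any 1 pair. The vesicle-binding synuclein beta, sncb, had 232, 214, 126 and 150.5 CPM in social sand and 392, 506, 523 and 891 CPM in social rock (log2 fold change -1.64, standard error 0.32, adjusted p = 0.00260). Its change was -0.74 in Petro_MC and -2.52 in LF_MC, and it was not called without the LF_MC pair (adjusted p = 0.0517). SNAP25-B (LOC101468238), a SNARE protein of the plasma membrane, had 209, 170.4, 201 and 293 CPM in social sand and 504, 342, 476 and 895 CPM in social rock (log2 fold change -1.29, standard error 0.28, adjusted p = 0.00532). This gene was not called without the MZ_TI or LF_MC pair (adjusted p = 0.0504 and 0.0568). In the list as a whole 5 were called without the MZ_TI pair and 4 without the LF_MC pair. With libraries scaled by total counts or with the block left out 14 were called in either case.

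On the receiving side of the synapse, 5 of 9 tested genes of receptors and postsynaptic scaffolds were called lower and none higher, of 17 listed, a smaller share than the 67.8% of all named genes tested. Their median log2 fold change was -1.81. gria2, the AMPA receptor subunit that limits calcium entry, stood at 71.8, 76.9, 105 and 272 CPM in social sand, against 286, 319, 392 and 711 CPM in social rock (log2 fold change -1.81, standard error 0.30, adjusted p = 8.65e-04). The LF_MC social sand male had the highest social sand value, just below the lowest social rock value. The GABA-A receptor subunit beta-2 (LOC101464081), part of the main inhibitory receptor, had 95.7, 82.4, 58.7 and 117 CPM in social sand and 277, 179.9, 245 and 368 CPM in social rock (log2 fold change -1.59, standard error 0.33, adjusted p = 0.00377). gria2 was called without any 1 pair, but the GABA-A subunit was not called without the MZ_TI pair (adjusted p = 0.0629). In the list, 1 was called without the MZ_TI pair, 2 without the LF_MC pair and also 2 without the Petro_MC pair, whereas 7 were called without Petro_AB. Without the block 3 were called, and 2 after thinning.

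Genes of the dense-core granule, which stores neuropeptides, were called lower for 5 of 6 tested, and all 6 were lower in all 4 pairs. Of all 4862 genes tested, 824 (16.9%) were lower and 576 (11.8%) higher in all 4 pairs. The 6 were drawn from genes the study had called on these samples, so their shared direction is a description. chga, the granule protein chromogranin A, had 191, 170.4, 143 and 121 CPM in social sand, against 309, 529, 479.8 and 666 CPM in social rock (log2 fold change -1.62, standard error 0.32, adjusted p = 0.00261). chgb, its relative chromogranin B, had 776, 775, 377 and 485 CPM in social sand and 1159.7, 1418, 1655 and 1678 CPM in social rock (log2 fold change -1.34, standard error 0.28, adjusted p = 0.00464). For both the contexts did not overlap and the smallest change was in Petro_MC. The gene chga was not called without the LF_MC pair (adjusted p = 0.0511) and chgb was not called without the MZ_TI or LF_MC pair (adjusted p = 0.0990 and 0.0662). Secretogranins II and III and carboxypeptidase E, the enzyme that trims peptide precursors, were also called, with log2 fold changes of -1.52, -1.30 and -1.17. The receptor-type phosphatase of the granule membrane had -1.57 and an adjusted p of 0.0508. In this list 1 was called without the MZ_TI pair and 0 without the LF_MC pair.

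Calcium signalling genes, many of them read out by calmodulin, were called lower for 10 of 13 tested, of 16 listed, with a median log2 fold change of -1.78. Besides calm2, calm3 had 61.5, 98.9, 46.1 and 83.6 CPM in social sand, against 316, 249, 429 and 661 CPM in social rock (log2 fold change -2.47, standard error 0.35, adjusted p = 1.88e-04), and was called without any 1 pair. Calmodulin genes encode nearly the same protein, and how the counting treated fragments with several alignments is not given, so reads may be shared among them. Visinin-like protein 1 (LOC101471140), a neuronal calcium sensor, had 119.7, 209, 122 and 163 CPM in social sand and 303, 337, 375 and 1009.7 CPM in social rock (log2 fold change -1.57, standard error 0.32, adjusted p = 0.00364). Visinin-like protein 1 was not called without the LF_MC pair (adjusted p = 0.0781). The ryanodine receptor ryr2 and a calcineurin catalytic subunit were also called. For the list 4 were called without the MZ_TI pair and 3 without the LF_MC pair. All 7 genes for 14-3-3 proteins, adaptors that bind phosphorylated partners, were called lower, with a median of -1.79. The gene for 14-3-3 epsilon, LOC101470309, had 34.2, 60.4, 21 and 54.3 CPM in social sand, against 121, 139, 152 and 308 CPM in social rock (log2 fold change -2.06, standard error 0.39, adjusted p = 0.00234), and was called without any 1 pair. For the 7 genes, which are also close copies, 2 were called without the MZ_TI pair and 1 without the LF_MC pair. Of 2 tested G protein subunits, 1 was called lower. The other was higher in all 4 pairs and was not called (log2 fold change 1.35, adjusted p = 0.0557).

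All 5 genes of the amyloid precursor family and its secretase were called lower. app, the amyloid beta precursor, had 95.7, 159, 75.5 and 163 CPM in social sand, against 319, 182, 616 and 893 CPM in social rock (log2 fold change -1.87, standard error 0.37, adjusted p = 0.00292). The Petro_AB brothers differed little, by -0.18 on the log2 scale, against -1.68 to -2.94 in the other pairs. aplp2, its paralog, had 61.5, 82.4, 41.9 and 50.2 CPM in social sand and 174, 109, 209.8 and 345 CPM in social rock (log2 fold change -1.75, standard error 0.40, adjusted p = 0.00722). The gene app was not called without the MZ_TI or LF_MC pair (adjusted p = 0.0544 and 0.0737), and aplp2 was not called without the MZ_TI or LF_MC pair (adjusted p = 0.0857 and 0.129). None of the 5 was called when either of these pairs was left out. Of the sodium pump, which restores the ion gradients spent by firing, 3 of 5 tested genes were called lower. This was a smaller share than the 67.8% of all named genes tested. In this list 1 was called without the MZ_TI pair and 1 without the LF_MC pair. The beta-2 subunit (LOC101485486) had 47.9, 93.4, 25.2 and 92 CPM in social sand, against 245, 242, 291 and 398 CPM in social rock (log2 fold change -2.26, standard error 0.37, adjusted p = 6.99e-04), called without any 1 pair. The alpha-1 subunit (LOC101476311), the catalytic chain, had 119.7, 76.9, 83.9 and 163 CPM in social sand and 312, 141, 375 and 604 CPM in social rock. Here the contexts overlapped, because the Petro_AB social rock male was below the LF_MC social sand male (log2 fold change -1.60, standard error 0.32, adjusted p = 0.00323). The call did not hold in every fit, and this subunit was not called without the MZ_TI or LF_MC pair (adjusted p = 0.0629 and 0.0526).

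Genes of neuronal adhesion were called lower for 10 of 11 tested, of 21 listed. ptprd, a receptor phosphatase that organises presynaptic sites, had 154, 176, 79.7 and 167 CPM in social sand, against 309, 307, 445 and 555 CPM in social rock (log2 fold change -1.48, standard error 0.32, adjusted p = 0.00567). The latrophilin gene LOC101487011 (adhesion G protein-coupled receptor L1), which spans the synaptic cleft, had 88.9, 121, 96.5 and 113 CPM in social sand and 236, 153, 394 and 515 CPM in social rock (log2 fold change -1.52, standard error 0.35, adjusted p = 0.00737). For both genes the contexts did not overlap. However, ptprd was not called without the MZ_TI or LF_MC pair (adjusted p = 0.110 and 0.0720), the latrophilin was not called without the MZ_TI or LF_MC pair (adjusted p = 0.107 and 0.117), and in the list none was called without the MZ_TI pair and 0 without the LF_MC pair. Genes of microtubules, neurofilament and axonal transport were called lower for 12 of 15 tested, of 19 listed. Tubulin beta-4B (LOC101480422) had 103, 115, 62.9 and 87.8 CPM in social sand, against 296, 229, 328 and 481 CPM in social rock (log2 fold change -1.83, standard error 0.34, adjusted p = 0.00174), called without any 1 pair, although tubulin genes are near copies that may share reads. Neurofilament light (LOC101487084), a filament of large axons, had 253, 214, 134 and 125 CPM in social sand and 509, 411, 509 and 893 CPM in social rock (log2 fold change -1.65, standard error 0.32, adjusted p = 0.00261). Neurofilament light was not called without the LF_MC pair (adjusted p = 0.0517). LOC101485572, a collapsin response mediator of axon growth, had 44.4, 76.9, 33.5 and 92 CPM in social sand and 119, 196, 200.1 and 353 CPM in social rock (log2 fold change -1.80, standard error 0.36, adjusted p = 0.00293). This gene was not called without the MZ_TI pair (adjusted p = 0.0544). In the list 3 were called without the MZ_TI pair and 2 without the LF_MC pair, and 7 were called without the block or with scaling by total counts.

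The lists of glial genes held only genes called lower among those tested. All 9 tested astrocyte genes, of 11 listed, were called lower, with a median log2 fold change of -1.98. Beside slc1a2, the GABA transporter slc6a11 had 88.9, 38.5, 33.5 and 46 CPM in social sand, against 151, 161, 299 and 613 CPM in social rock (log2 fold change -2.39, standard error 0.43, adjusted p = 0.00118). Its change was -0.73 in Petro_MC and -3.59 in LF_MC, and it was not called without the LF_MC pair (adjusted p = 0.0511). The secreted chaperone clusterin, clu, had 103, 143, 37.7 and 83.6 CPM in social sand and 300.2, 282, 223 and 664 CPM in social rock (log2 fold change -1.98, standard error 0.36, adjusted p = 0.00132). NDRG2 (LOC101478721), a cytoplasmic protein of astrocytes, had 61.5, 132, 92.3 and 62.7 CPM in social sand and 353, 187, 565 and 706 CPM in social rock (log2 fold change -2.29, standard error 0.39, adjusted p = 8.65e-04). Both kept the call without any 1 pair, and in the list 4 were called without the MZ_TI pair and 4 without the LF_MC pair. All 4 tested myelin genes, of 5 listed, were called lower. mpz, an adhesion protein that fish use in myelin of the central nervous system, had 431, 407, 273 and 573 CPM in social sand, against 931, 1187, 1336 and 2374 CPM in social rock (log2 fold change -1.75, standard error 0.27, adjusted p = 4.88e-04). Myelin basic protein (LOC101487221), which compacts the sheath, had 243, 341, 147 and 318 CPM in social sand and 566, 790.4, 581 and 1142 CPM in social rock (log2 fold change -1.56, standard error 0.28, adjusted p = 0.00107). These 2 were called without any 1 pair. myrf, the transcription factor of myelin-forming cells, had 20.5, 11, 4.19 and 8.36 CPM in social sand, against 73.3, 37, 113 and 104 CPM in social rock (log2 fold change -2.81, standard error 0.60, adjusted p = 0.00521). It was not called without the MZ_TI or LF_MC pair (adjusted p = 0.0704 and 0.0720), so that 2 were called without the MZ_TI pair and 2 without the LF_MC pair.

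Lists of genes used by most cell types also held genes called lower, in part at shares under the 67.8% of all named genes tested. Of 7 tested chaperone genes, of 14 listed, 6 were called lower. hsp90ab1, the constitutive cytosolic HSP90, had 253, 236, 96.5 and 263 CPM in social sand, against 578, 568, 713 and 1538 CPM in social rock (log2 fold change -1.95, standard error 0.31, adjusted p = 6.99e-04). HSP 90-alpha (LOC101474541), the inducible form in mammals, had 113, 181, 109 and 134 CPM in social sand and 479, 284, 544 and 906 CPM in social rock (log2 fold change -1.96, standard error 0.34, adjusted p = 8.65e-04). Both were called without any 1 pair, and in the list 3 were called without the MZ_TI pair and 2 without the LF_MC pair. Of 9 tested genes of glycolysis and mitochondria, of 18 listed, 5 were called lower, under that share. Another was higher in all 4 pairs and was not called (log2 fold change 1.13, adjusted p = 0.0508). LOC101474979, a subunit of the cytochrome b-c1 complex, had 6.84, 11, 21 and 0 CPM in social sand, against 48.1, 72.3, 126 and 242 CPM in social rock (log2 fold change -3.49, standard error 0.61, adjusted p = 0.00105). Its change was -5.53 in LF_MC, where the social sand male had no count, and -2.14 to -2.32 in the other pairs. The creatine kinase ckb, which buffers ATP in brain, had 58.1, 16.5, 29.4 and 66.9 CPM in social sand and 103, 86.4, 142 and 453 CPM in social rock (log2 fold change -2.02, standard error 0.41, adjusted p = 0.00330). Hexokinase-1 (LOC101482510), the first enzyme of glycolysis, had 34.2, 16.5, 4.19 and 8.36 CPM in social sand and 110.0, 49.4, 77.7 and 183 CPM in social rock (log2 fold change -2.71, standard error 0.55, adjusted p = 0.00337). The gene ckb was not called without the LF_MC pair (adjusted p = 0.0946) and hexokinase-1 was not called without the LF_MC pair (adjusted p = 0.0858), while 4 were called without the MZ_TI pair and 1 without the LF_MC pair. Of 11 tested translation genes, of 18 listed, 6 were called lower, also under that share. eif5, which helps ribosomes find the start codon, had 20.5, 33, 4.19 and 16.7 CPM in social sand, against 94, 75.9, 117 and 206 CPM in social rock (log2 fold change -2.70, standard error 0.52, adjusted p = 0.00234). The ribosomal protein gene rps9 had 6.84, 22, 8.39 and 25.1 CPM in social sand and 82.5, 77.6, 58.3 and 164 CPM in social rock (log2 fold change -2.65, standard error 0.52, adjusted p = 0.00261). The gene eif5 was not called without the LF_MC pair (adjusted p = 0.0593), rps9 was not called without the LF_MC pair (adjusted p = 0.0511), and 2 were called without the MZ_TI pair and 0 without the LF_MC pair. Of 4 tested genes of ubiquitin and the proteasome 1 was called lower, again under that share, and none of the 3 circadian genes listed had enough counts to be tested.

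**Figure D2:**
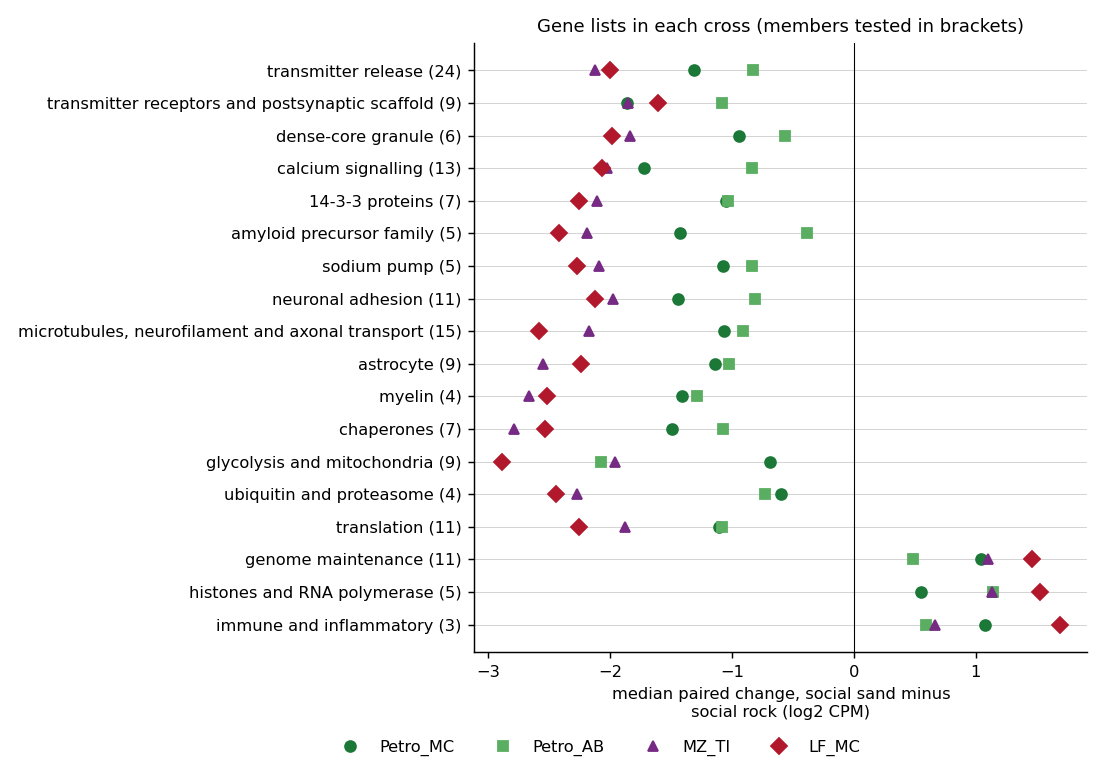
Median paired change of each gene list in each cross, social sand minus social rock on the log2 CPM scale, for lists with at least 3 genes tested. The 15 lists in the upper part lie below 0 in all 4 crosses, with Petro_AB nearest to 0 in all of them but glycolysis and ubiquitin, and the 3 lists at the bottom lie above 0.

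The 15 genes called higher in social sand changed less, by 2.40-fold in the median. ncf4 took the most counts of them. The locus is annotated as neutrophil cytosolic factor 4, a subunit of the phagocyte oxidase, while the study's table gives another human counterpart for it. It had 8465, 7578, 8811 and 8356 CPM in social sand, against 4006, 5019, 4149 and 2589 CPM in social rock. The social sand values lay within a narrow range above all social rock values, which were lowest in LF_MC (log2 fold change 1.11, standard error 0.25, adjusted p = 0.00690). The large subunit of replication factor C, rfc1, which loads the sliding clamp onto DNA, had 414, 407, 403 and 539 CPM in social sand and 163, 238, 122 and 192 CPM in social rock (log2 fold change 1.33, standard error 0.29, adjusted p = 0.00567). lrtm1, a membrane protein with leucine-rich repeats, had 352, 242, 331 and 330.2 CPM in social sand and 110.0, 102, 157 and 113 CPM in social rock (log2 fold change 1.38, standard error 0.30, adjusted p = 0.00585). ncf4 was not called without the MZ_TI or LF_MC pair (adjusted p = 0.0629 and 0.0492 with a log2 fold change of 0.96), and rfc1 was not called without the MZ_TI pair (adjusted p = 0.0700), whereas lrtm1 was called without any 1 pair. LOC101478856, which encodes a protein with an aspartate beta-hydroxylase domain, had 1487, 1973, 1778 and 1664 CPM in social sand and 841, 845, 1096 and 651 CPM in social rock (log2 fold change 1.02, standard error 0.25, adjusted p = 0.0106). Although its contexts did not overlap, it was not called without the Petro_AB, MZ_TI or LF_MC pair (adjusted p = 0.0282 with a log2 fold change of 0.98, 0.0503 and 0.0528). The membrane protein gene tmem268 differed most between crosses, with 550.5, 154, 709 and 184 CPM in social sand and 94, 116, 105 and 111 CPM in social rock (log2 fold change 1.65, standard error 0.38, adjusted p = 0.00778). Its change was above 2 on the log2 scale in Petro_MC and MZ_TI, and 0.39 and 0.70 in Petro_AB and LF_MC. The gene was not called without the MZ_TI pair (adjusted p = 0.139).

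Of the other 10, 4 belonged to a list of 7 histone and RNA polymerase genes, 5 of them tested. Over all genes tested, 15 of 4862 were called higher (0.309%). All but 3 of the 15 had a name, and 388 named genes were tested, so the share called higher was larger among named genes. This list too was drawn from genes the study called on these samples, so its count is a description. Histone H4 (LOC101482757), of the nucleosome core, had 150.4, 132, 151 and 222 CPM in social sand, against 84.8, 65.3, 66 and 69.8 CPM in social rock (log2 fold change 1.18, standard error 0.35, adjusted p = 0.0394). polr2d, a subunit of RNA polymerase II, had 137, 242, 222 and 205 CPM in social sand and 91.7, 95.3, 113 and 69.8 CPM in social rock (log2 fold change 1.11, standard error 0.33, adjusted p = 0.0426). In all 4 crosses both were higher in the social sand brother. Transcription factor IIIA (LOC101483560), which starts 5S ribosomal RNA synthesis, had 119.7, 203, 201 and 238 CPM in social sand and 105, 79.4, 71.9 and 79.3 CPM in social rock (log2 fold change 1.16, standard error 0.35, adjusted p = 0.0447). Mediator subunit 1 (LOC101477176), which links activators to the polymerase, had 386, 363, 554 and 272 CPM in social sand and 227, 176, 303 and 84.9 CPM in social rock (log2 fold change 1.07, standard error 0.29, adjusted p = 0.0252), with overlapping contexts. Without the MZ_TI or the LF_MC pair none of these 4 was called, with adjusted p of 0.110 to 0.238. Histone H4 also lost the call without Petro_MC (adjusted p = 0.0631). Without Petro_AB, polr2d and transcription factor IIIA lost it as well (adjusted p = 0.0744 and 0.0712). ten1, a subunit of the telomere-binding CST complex, had 109, 137, 168 and 229.9 CPM in social sand and 50.4, 63.5, 101 and 51 CPM in social rock (log2 fold change 1.28, standard error 0.36, adjusted p = 0.0338). This subunit gene was not called without the Petro_MC, MZ_TI or LF_MC pair (adjusted p = 0.0529, 0.0843 and 0.214). Together with rfc1 it made up the 2 genes called higher among 11 tested genes of genome maintenance. In the same list the ubiquitin hydrolase gene bap1 and mdm4, an inhibitor of p53, were called lower, with log2 fold changes of -2.41 and -2.29. faap100, of the Fanconi anemia core complex, was among the 6 genes that passed the adjusted p with a smaller change (log2 fold change 0.97, standard error 0.27, adjusted p = 0.0295). The remaining 5 were LOC105940947, LOC101481474 and 3 loci without a name, gene21311, gene30424 and gene124. LOC105940947 varied least between crosses, with 129.9, 148, 143 and 155 CPM in social sand and 50.4, 72.3, 60.2 and 73.6 CPM in social rock (log2 fold change 1.17, standard error 0.35, adjusted p = 0.0432). The locus gene30424 had a mean of only 10 counts. Each of these 5 lost its call in at least 2 of the fits without a pair. Of 3 tested immune genes, ncf4 alone was called.

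**Figure D3:**
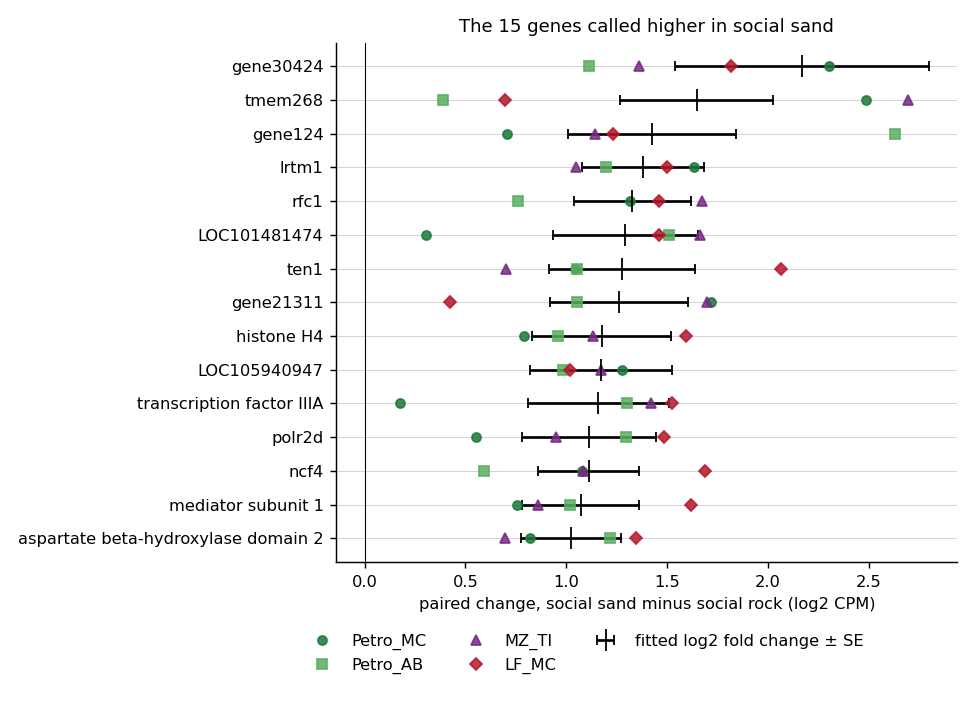
Paired change of the 15 genes called higher, social sand minus social rock on the log2 CPM scale, with a symbol for each cross and the fitted log2 fold change with its standard error in black. All symbols lie above 0, and those of tmem268 spread from 0.39 to 2.70.

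Scaling by total counts ended most of the calls in this direction, whereas RLE scaling left similar shares in both. Scaling by total counts moved the median log2 fold change of all genes tested to -0.11, against 0.02 with TMM, and left 229 genes called lower and 3 called higher. The genes called higher that kept the call numbered 3 of 15 with total counts and 13 with RLE scaling. Of genes called lower, 228 and 254 of 296 kept it. The 69 named genes that were followed through the alternatives kept their direction under these scalings. DESeq2 with the same block called all 15 and limma-voom 14 of them, and they called 262 and 225 of the 296.

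The crosses differed in the size of the change. Over all genes tested, the median size of the paired change was 0.51 in Petro_MC, 0.49 in Petro_AB, 0.64 in MZ_TI and 0.84 in LF_MC on the log2 CPM scale. Among the 1272 of these genes with a mean of at least 50 counts, in the same scaling, the sizes were 0.371, 0.336, 0.528 and 0.791. With the TMM scaling redone on genes of at least that mean alone, they were 0.365, 0.338, 0.408 and 0.495. For these more abundant genes, the crosses thus lay closer together with the scaling redone than in the scaling of all genes tested. The changes of the 296 genes called lower had medians of -1.49, -1.10, -2.13 and -2.24 in these crosses, and those of the 15 genes called higher 1.04, 1.05, 1.14 and 1.48. These genes were called on the same pairs, so their values per cross are a description. Of the 296, 295, 283, 296 and 295 were lower in the social sand brother of Petro_MC, Petro_AB, MZ_TI and LF_MC. The smallest of the 4 changes was that of Petro_AB for 178 genes and that of LF_MC for 23. Among the exceptions, atp6v1a stood 0.06 above in Petro_MC and the unnamed gene4127 0.40 above in LF_MC. Among the 1272 genes with a mean of at least 50 counts, in the scaling of all genes tested, the median paired change was 0.04, -0.02, 0.26 and 0.56. In all 4 crosses this lay above the median of all genes tested, -0.08, -0.05, -0.07 and 0.11, and by most in MZ_TI and LF_MC.

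**Figure D4:**
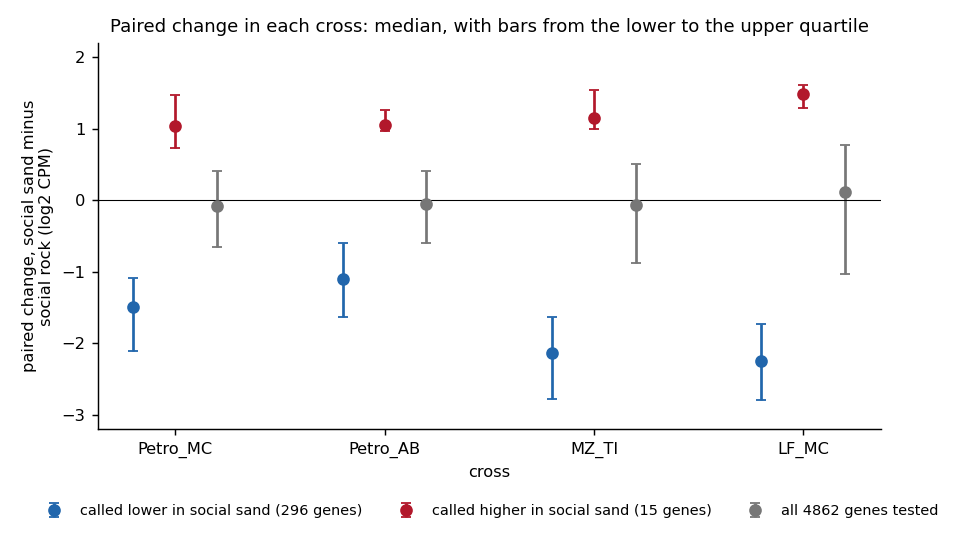
Paired change in each cross, social sand minus social rock on the log2 CPM scale, as the median with bars from the lower to the upper quartile. Genes called lower have medians from -1.10 in Petro_AB to -2.24 in LF_MC, and genes called higher from 1.04 to 1.48. The medians of all genes tested lie near 0, with quartiles as far out as -1.03 and 0.77 in LF_MC.

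To read each pair against genes it had not helped to call, genes called in a fit of 3 pairs were looked up in the fourth. The pair left out still took part in the count filter of the genes looked up and in the scaling of its values. A gene can pass that filter on the libraries of 1 context alone. This was added after the main values were seen. Of 291 genes called lower without Petro_MC, 277 were also among the 4862 genes tested in all pairs, and 268 of the 277 were lower in its social sand brother, against 54.0% of all genes tested there. For Petro_AB 402 of 440 could be looked up and 313 were lower (53.4% of all), for MZ_TI 81 of 82 and 81 (52.9%), and for LF_MC 54 of 54 and 52 (46.7%). The median change in the pair left out was -1.24, -0.69, -2.29 and -2.25. Of the genes called higher that could be looked up, the direction was the same for 17 of 24 in Petro_MC, 28 of 45 in Petro_AB, 1 of 3 in MZ_TI and 5 of 7 in LF_MC, with all genes tested at 45.9%, 46.5%, 47.1% and 53.2%. The social sand library was the smaller one in every pair, which this reading does not alter. Across genes, the paired changes of 2 crosses correlated at r = 0.17 to 0.54 over the 4862 genes tested, highest between MZ_TI and LF_MC and lowest between Petro_MC and Petro_AB. Over the 1272 more abundant genes they correlated at 0.29 to 0.71, with the same pair of crosses highest. Genes share their libraries and are not independent.

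**Figure D5:**
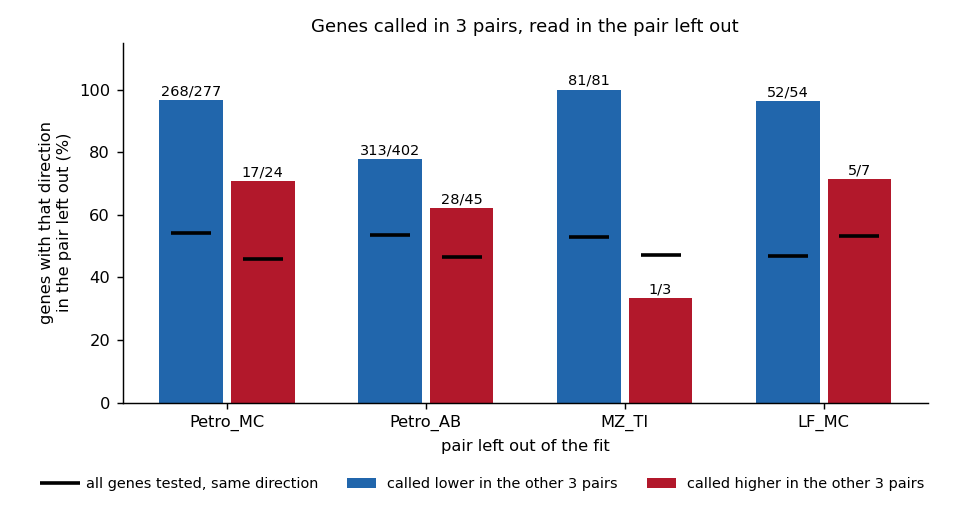
Share of genes called in 3 pairs, and tested in all 4, that had the same direction in the pair left out, in percent, with counts above the bars and black lines for all genes tested. Genes called lower reach 77.9% in Petro_AB and 96.3% to 100% in the other pairs, and genes called higher 33.3% to 71.4%.

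Whether the change differed by the father was tested as an interaction of context with cross. Between the Petrotilapia-sired crosses and the other 2, no gene passed an adjusted p of 0.05 by edgeR, with 449 genes at an unadjusted p under 0.05 (9.23% of the 4862 tested) where 243 are expected by chance. Limma-voom also gave 0 (493 at an unadjusted p under 0.05), DESeq2 gave 5 (274), and edgeR after thinning gave 2 (315). LOC101485530 (ependymin-1) and the unnamed gene3518 were in both of the last. The changes of ependymin-1 were -1.77 and -1.42 in the Petrotilapia-sired pairs and -3.43 and -3.65 in the others. Its interaction was 1.96 on the log2 scale, with an unadjusted p of 1.1e-04 and an adjusted p of 0.403 by edgeR. Between crosses with a Mchenga mother and the other 2, no gene passed by edgeR, limma-voom or DESeq2, with 106 (2.18%), 113 and 54 at an unadjusted p under 0.05. With 2 pairs on a side, a cross and its parents cannot be told apart.

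Called genes with at least 50 counts on average spanned a wide range in how alike the crosses were, and the following were taken for that spread, as a description. zbtb18, a transcriptional repressor of neuronal development, varied least, with changes of -1.18, -0.86, -1.22 and -1.38. It had 140.2, 121, 176 and 213 CPM in social sand and 325, 224, 418 and 562 CPM in social rock (log2 fold change -1.20, standard error 0.29, adjusted p = 0.0120), and it was not called without the MZ_TI or LF_MC pair (adjusted p = 0.110 and 0.0929). SNAP25-B, gria2, lrtm1 and the phospholipase gene LOC101478971 came next. The SD of their paired changes was 0.251, 0.278, 0.268 and 0.265, against 0.216 for zbtb18. The phospholipase had changes of -1.39, -0.77, -0.98 and -1.17, and was not called without the Petro_MC, MZ_TI or LF_MC pair (adjusted p = 0.129, 0.162 and 0.172). At the other end, atp2b2, a calcium pump of the plasma membrane, had changes of -1.26, -0.41, -4.26 and -2.55. In social sand it stood at 75.2, 82.4, 8.39 and 83.6 CPM, so the MZ_TI male was far below the other 3, against 188, 111, 258 and 517 CPM in social rock (log2 fold change -2.04, standard error 0.46, adjusted p = 0.00650). The pump gene was not called without the MZ_TI or LF_MC pair (adjusted p = 0.0835 and 0.140). atp6v1a, the catalytic subunit of the vacuolar proton pump, had changes of 0.06, -1.50, -1.68 and -3.71. Its social sand values, 47.9, 44, 54.5 and 37.6 CPM, were alike and its social rock values, 45.8, 134, 186 and 559 CPM, were not (log2 fold change -1.84, standard error 0.47, adjusted p = 0.0166), and it was not called without the MZ_TI or LF_MC pair (adjusted p = 0.0819 and 0.292). Protocadherin gamma-A11 (LOC105940793), of a large family of neuronal cadherins, had changes of -2.43, 0.36, -1.87 and -3.04, with an adjusted p of 0.00936. The protocadherin was not called without the MZ_TI or LF_MC pair (adjusted p = 0.0540 and 0.204). The tubulin beta gene LOC101469831 had changes of -1.65, 0.53, -1.26 and -3.13, and the beta-SNAP gene LOC101479249, which helps to take apart used SNARE complexes, -2.60, 0.44, -2.26 and -0.72. In these 3 genes Petro_AB was the only pair with the social sand brother higher, and in the order named their adjusted p reached 0.204, 0.482 and 0.311 without another pair. Some genes changed in 1 cross above all. tmsb4x, which binds actin monomers, and zic1, a patterning factor of the dorsal brain, both had -3.17 in LF_MC, against -0.64 to -0.78 and -0.39 to -1.002 in the other 3, and their adjusted p was 0.296 and 0.397 without LF_MC. The phospholipase eta-2 gene LOC101475135 instead changed most in Petro_MC and least in LF_MC, with -2.88, -1.17, -0.67 and 0.18, and was not called (adjusted p = 0.0510).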

How the data were processed

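From stranded mRNA libraries, the authors dropped reads of mean quality under 20 and cut low-quality 3′ bases using the NGS QC Toolkit. They mapped the rest to MZ_UMD2a (TopHat 2.0.9), used samtools 0.19 on the alignments, counted fragments per locus (HTSeq 0.6.1) and deposited these raw counts. edgeR 3.6.8 is named in their processing notes. Which annotation release and strand setting were used, and how fragments with several alignments were counted, is not given in the sources used here. Totals of 206320 to 694114 per library mean that a gene near 10 counts is imprecise.

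The 8 libraries of the brothers were tested with edgeR 4.0.16 in R 4.3.3 (filterByExpr with a minimum count of 10, TMM, quasi-likelihood test), with brood as a block. The study fitted limma-voom to counts scaled across all samples and describes no block. Limma-voom without a block was run as an alternative on the 8 libraries alone, so the study's model was not repeated in full. The pairing comes from the series' description, by which a cross is a brood. Across genes, what set a fish apart from its group mean correlated between brothers at 0.057, 0.152, 0.135 and 0.234 in Petro_MC, Petro_AB, MZ_TI and LF_MC. A call needed a change of 2-fold or more and an adjusted p under 0.05 (Benjamini-Hochberg, all genes tested). Paired changes are differences of log2 CPM with a prior count of 2. Alternatives used limma 3.58.1, DESeq2 1.42.0, other scalings, filters, thresholds and samples, and libraries thinned to 206320 counts. Figures were drawn with matplotlib 3.10.9. The script was tested on simulated data.

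The count table carries gene numbers only. Names came from the study's table of differing genes, of which 812 were used, so 388 of the 4862 genes tested and 275 of the 311 called have names. Chromosomal positions and sequences were not used here. Named genes were the 12 with the smallest p in each direction, the 5 with the largest folds, the 5 most and 5 least alike among crosses, the 3 most particular to a cross, up to 4 members of each list, and at most 2 unnamed loci in each direction. Not all of them are described. Beside the rule, all 15 genes called higher, gene4127, gene3518, bap1, ryr2 and faap100 are named, as are other called members of lists. The values of 1 called gene are not reported here. The pairs, lists and rule were chosen with earlier results of these data known. Reading genes called in 3 pairs in the pair left out, and the marker sums, were added after the values were seen.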

Additional observations from a re-analysis of the deposited data

Results flagged for a closer look

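Among 69 genes named in the report, 138 groups of 4 fish were examined for a value set apart from the other 3, and 7 were found. The measure was Dixon's ratio of the gap to the whole range, at its 95% critical value. It was taken on the log2 CPM scale, so the plain CPM printed here give slightly different ratios. Some of the 69 genes were picked for how much or how little the crosses differed, and others for a small p. A chance rate of 1 in 20 therefore does not apply, and the count is a description. In the social sand male of LF_MC, calm2 stood at 134 CPM with the other social sand males at 71.4 to 78.6 (ratio 0.849), piccolo (LOC101476438) at 33.4 with 20.5 to 22 (0.864), rfc1 at 539 with 403 to 414 (0.907) and zic1 at 33.4 with 79.7 to 88.9 (0.884). In the social sand male of MZ_TI, atp2b2 stood at 8.39 CPM with the others at 75.2 to 83.6 (0.947) and hsp90ab1 at 96.5 with 236 to 263 (0.891). In the social rock male of LF_MC the phospholipase gene LOC101478971 stood at 364 CPM with the others at 188 to 209.9 (0.834). Both crosses are those whose removal lowered the number of calls most.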

How the results depend on the processing

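Without the replicate block, the same 8 libraries gave 222 genes called (211 lower and 11 higher in social sand), 219 of them among the 311. Adding the 2 lone males gave 25 higher without the block, and 507 genes (66 higher) with it. Limma-voom called 35 genes without the block (31 lower, 4 higher, 20 members of the gene lists) and 47 higher with it. Only 3 were called higher with scaling by total counts. With a mean of at least 50 counts as the only filter 84 were called (82 lower, 2 higher, 45 list members), from 1275 tested. An adjusted p under 0.01 left 147 (143 lower, 4 higher). Leaving out 1 pair gave 61 to 488 genes, 54 to 440 lower and 3 to 48 higher, and 23 to 142 list members against 119. The median size of the change was 0.408 in MZ_TI and 0.495 in LF_MC among the genes with a mean of at least 50 counts, scaled anew on these genes alone, and 0.68 in LF_MC after thinning. For the father's species DESeq2 called 5 genes and the thinned fit 2, against 0. The other alternatives kept each of these counts within 1.5 times. The cause of these shifts was not tested. None of the 69 genes examined above changed direction in any alternative that tested it. Of them, 52 were tested with a mean of at least 50 counts, 66 after thinning and 68 without Petro_AB. Of the 69, those that lost the call were most numerous for limma-voom without the block (42) and without the MZ_TI (34) or LF_MC pair (38), and 8 lost it without the block. Low totals limit all of this, with 63.3% of the called genes and 73.8% of those tested under 50 counts on average.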
